A study of Mus musculus with 12 samples.

Results

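The genes described here encode 10 enzymes that modify collagen: the lysyl oxidases Lox, Loxl1, Loxl2, Loxl3 and Loxl4, the prolyl 4-hydroxylase alpha subunits P4ha1 and P4ha2, and the lysyl hydroxylases Plod1, Plod2 and Plod3. They were chosen by name from these enzyme families and are 10 of the 49315 genes in the count tables. P4ha3, a further alpha subunit gene, is not among the 10 and its values are given beside P4ha1 and P4ha2. RNA was sequenced from MEFs, fibroblasts grown out of mouse embryos, kept in DMEM medium with 10% fetal bovine serum (FBS) and exposed for 24 h to an inhibitor of the protein kinase mTOR or to DMSO. The inhibitors were rapamycin at 20 ng/ml, which acts on mTOR complex 1 through the protein FKBP12, Torin1 at 250 nM, which competes with ATP at the mTOR kinase, and RapaLink-1 at 10 nM, in which a linker joins rapamycin to a kinase inhibitor of mTOR. Each of the 4 groups had 3 libraries. The sources used here do not give the genotype or passage of the cells. They also do not say that the 3 libraries stem from different cultures, and a p-value here rests on library spread alone, which may be technical.

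Collagen chains are modified in the endoplasmic reticulum before they fold into a triple helix. Prolyl 4-hydroxylase makes the hydroxyproline that keeps the helix stable at body temperature, and lysyl hydroxylases make the hydroxylysine that carries sugars and shapes the later crosslinks; both kinds of enzyme need iron, 2-oxoglutarate, oxygen and ascorbate. Outside the cell, the copper enzymes of the lysyl oxidase family oxidise lysine and hydroxylysine side chains of collagen and elastin, and the products join neighbouring molecules into fibres that resist load.

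Libraries held 30075870 to 39423703 counts, with overlapping ranges in the 4 groups. Scaled to library size as counts-per-million (CPM), 9 of 10 fibroblast markers stood at 1 or more in every group, and Fap, a protease of activated fibroblasts, stood at 0.15 CPM on average. The sum of the 10, mostly Col1a1 and Col1a2, lay at 17281 to 17604 CPM under DMSO, 14966 to 15284 CPM under rapamycin, 12865 to 13036 CPM under Torin1 and 12952 to 13219 CPM under RapaLink-1. The marker lists of muscle, bone, leukocytes and endothelium summed to at most 3.04 CPM in any library, with Cd3e, Myod1, Myog and Ibsp at 0. Cartilage markers, mostly the transcription factor Sox9, had summed levels of 90.1 to 92.4 CPM under DMSO, 64.2 to 66.6 CPM under rapamycin, 55.7 to 58.2 CPM under Torin1 and 34.0 to 35.5 CPM under RapaLink-1, with 3, 3, 2 and 2 of the 4 at or above 1 CPM and none at 0. Neural and glial markers, mostly Map2, summed to 90.1 to 93.7, 73.0 to 80.3, 84.8 to 89.0 and 74.9 to 77.4 CPM in the same order, with 2 of 4 at or above 1 CPM, and the tubulin Tubb3 among them averaged 15.7, 11.1, 3.59 and 3.36 CPM. Epithelial markers, with only the keratin Krt19 of 5 at or above 1 CPM, summed to 14.4 to 15.3, 9.55 to 11.2, 13.9 to 15.4 and 21.7 to 22.3 CPM. Adipocyte markers, with only Fabp4 of 3 at or above 1 CPM, summed to 9.98 to 11.7, 11.4 to 12.9, 13.3 to 14.8 and 15.3 to 15.8 CPM. Epcam, Cdh1, Adipoq, Sox10 and Gfap, more specific markers of these 3 lists, were at 0.335 CPM or less in every library. The epithelial keratins Krt8 and Krt18 reached 0.587 and 0.347 CPM. Krt8 averaged 0.0285 CPM under DMSO and 0.485 CPM under Torin1. Of the cartilage list, Acan reached 3.04 CPM and averaged 2.96 CPM under DMSO and 0.552 CPM under Torin1. Col2a1 reached 3.74 CPM and averaged 2.55, 3.63 and 1.38 CPM under DMSO, Torin1 and RapaLink-1. The part of any cells of these types in the results below was not tested. In RNA from whole cultures, fewer cells of a type and less RNA per cell cannot be told apart.

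All 10 genes were among the 15917 tested, and all 10 differed among the 4 groups, as did 13582 of all genes tested. With rapamycin 2 of the 10 rose against DMSO and 6 fell, where 27.5% of all genes tested rose and 32.2% fell. With Torin1 1 rose and 8 fell, beside 39.8% and 38.3% of all genes. With RapaLink-1 2 rose and 6 fell, beside 38.7% and 37.9%. A call means an adjusted p under 0.05 in edgeR's quasi-likelihood test, Benjamini-Hochberg adjusted over all genes tested. The median log2 fold change of the 10 genes was -0.13 with rapamycin, -0.10 with Torin1 and -0.16 with RapaLink-1, beside 0.00, 0.04 and 0.03 over all genes.

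These medians hide opposite movements, as the plot of fold changes shows. Lox rose with each compound, and P4ha1, P4ha2, Plod1 and Loxl2 fell with each, though the Torin1 value of Loxl2 was -0.05 and turned with the scaling described below. The calls for Loxl1, Loxl3, Loxl4, Plod2 and Plod3 were not the same with all 3 compounds. No member changed by a factor of 2 against DMSO, where 3.57% of all genes did with rapamycin, 18.4% with Torin1 and 16.3% with RapaLink-1. The 3 comparisons share their DMSO libraries, so they are not independent of one another. Small falls depended on the scaling of the libraries: upper-quartile scaling moved the median over all genes up by 0.06 with rapamycin, 0.13 with Torin1 and 0.14 with RapaLink-1, and the split became 4 higher and 6 lower, 4 higher and 4 lower, and 5 higher and 5 lower.

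**Figure D1:**
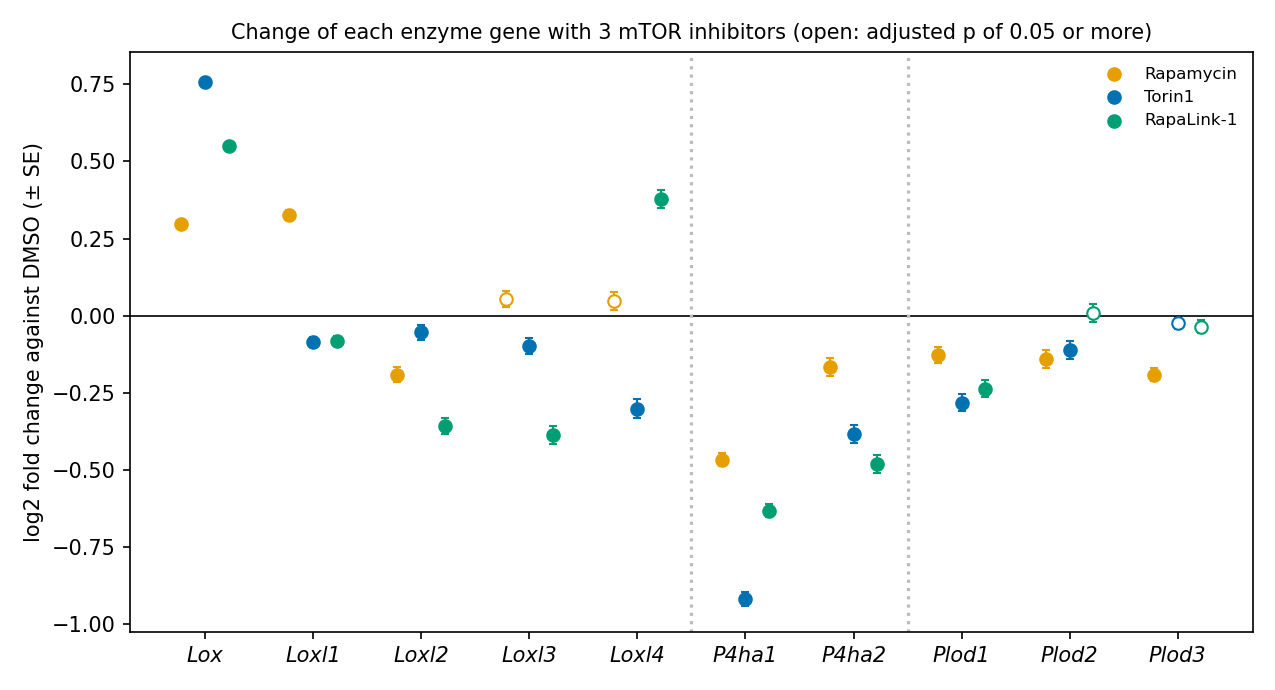
Log2 fold change against DMSO (vertical axis; bars, standard error) of the 10 genes for the 3 compounds, in the order lysyl oxidases, prolyl 4-hydroxylase subunits and lysyl hydroxylases; open symbols have an adjusted p of 0.05 or more. Lox lies between 0.30 and 0.76, P4ha1 between -0.92 and -0.47, and Loxl4 lies at -0.30 with Torin1 and 0.38 with RapaLink-1.

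Per length of transcript, in reads per kilobase of exon after scaling to library size (RPKM), Lox had the highest level in DMSO at 355, followed by Loxl1 at 134, P4ha1 at 53.6 and Plod3 at 41.6. The other 6 lay between 20.7 for Loxl2 and 12.5 for P4ha2. The libraries of Loxl2 and Loxl3 (19.9 RPKM) overlapped, and all other neighbours in this order were separate in DMSO. Lox and Loxl1 were highest and P4ha2 was lowest in all 4 groups. P4ha1 stood above Plod3 with DMSO and rapamycin and below it with Torin1 and RapaLink-1, and Loxl4 moved from the seventh place with DMSO to the fifth with RapaLink-1.

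**Figure D2:**
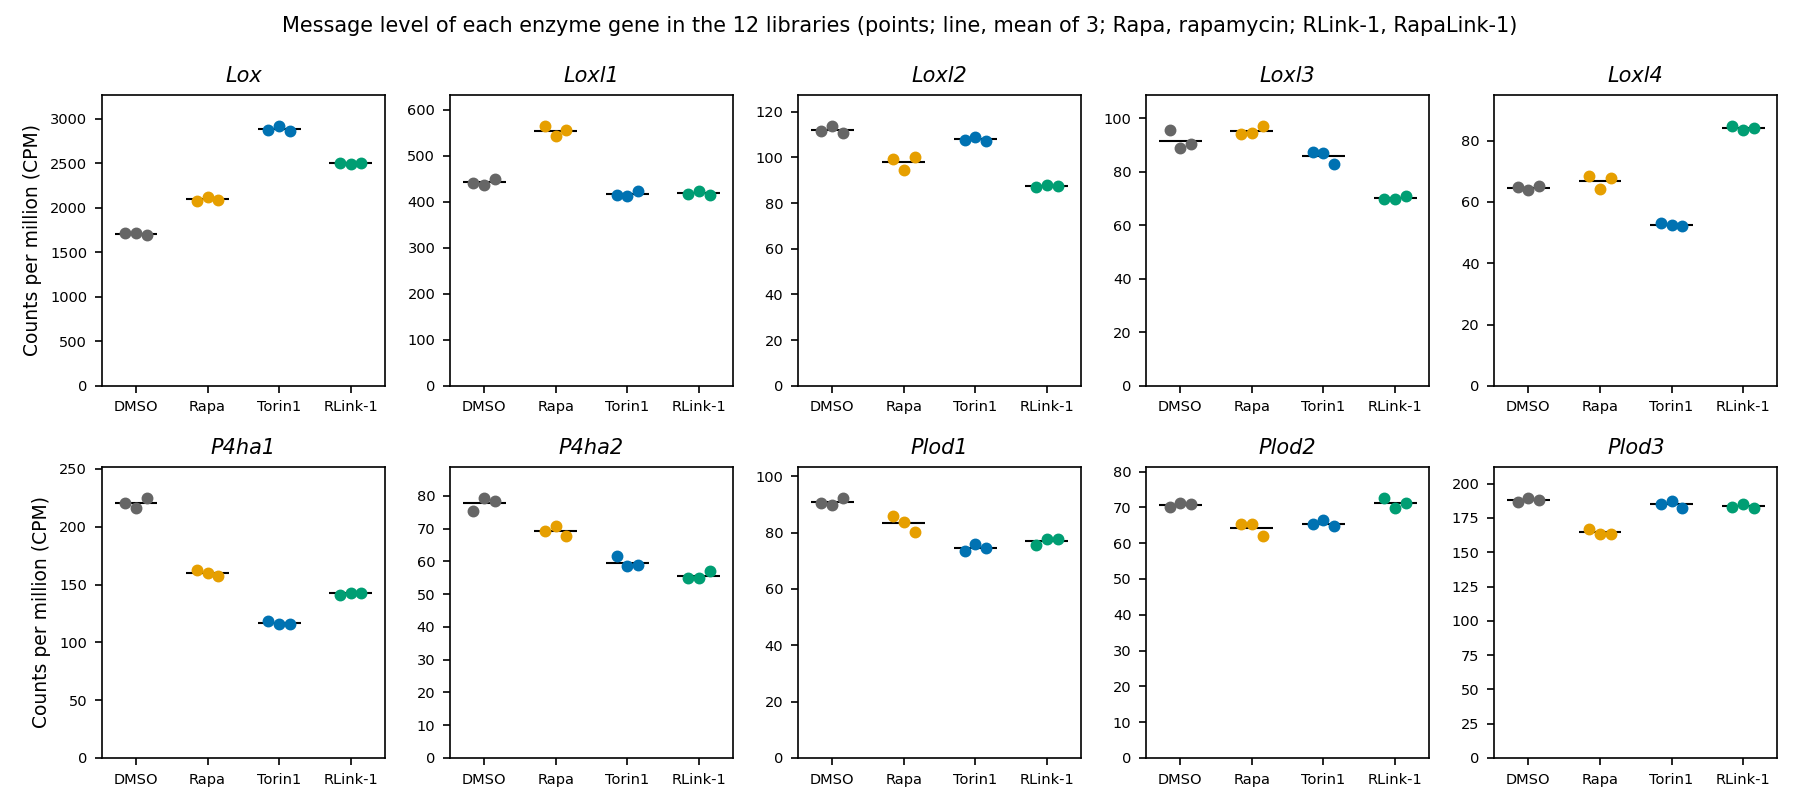
Level of each gene in CPM (vertical axis, from 0; each panel has its own scale) in the 12 libraries by treatment; points are libraries and lines the mean of 3. The 3 Torin1 libraries of Lox sit between 2867 and 2916, above all other libraries, and those of P4ha1 between 116 and 119, below all others.

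Lox (ENSMUSG00000024529, GRCm38 chr18:52516069-52529867, minus strand) encodes the founding lysyl oxidase, which crosslinks fibrillar collagen and elastin. Its level was 1718, 1716 and 1689 CPM in the DMSO libraries and 2077, 2126 and 2090.2 CPM in those with rapamycin. It reached 2876, 2916 and 2867 CPM with Torin1 and 2507, 2487 and 2508 CPM with RapaLink-1. No 2 groups overlapped, and every neighbouring pair in the order DMSO, rapamycin, RapaLink-1 and Torin1 was called. The log2 fold change against DMSO was 0.30 ± 0.01 (SE) with rapamycin (adjusted p = 8.27e-49), 0.76 ± 0.01 with Torin1 (3.17e-106) and 0.55 ± 0.01 with RapaLink-1 (1.32e-85). At these doses the level with RapaLink-1 was below that with Torin1 (-0.21 ± 0.01, adjusted p = 6.5e-32).

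Loxl1 (ENSMUSG00000032334, chr9:58287738-58313186, minus strand) encodes the paralogue needed for the upkeep of elastic fibres. It stood at 440.1, 436 and 449.9 CPM with DMSO and at 564, 543 and 556 CPM with rapamycin. With Torin1 it stood at 416, 412 and 423 CPM, and with RapaLink-1 at 416, 423 and 414 CPM. The rapamycin libraries were highest, and those of the kinase inhibitors overlapped each other just below DMSO. Rapamycin raised Loxl1 by 0.33 ± 0.02 (adjusted p = 4.51e-44). Torin1 and RapaLink-1 both lay below rapamycin, each at -0.41 ± 0.02 (adjusted p = 4.01e-56 and 1.29e-55). The small falls against DMSO, -0.08 ± 0.02 with either compound (adjusted p = 2.17e-06 and 4.81e-06), turned to 0.04 and 0.06 under upper-quartile scaling, where both were called higher (adjusted p = 0.0158 and 0.00138). RapaLink-1 and Torin1 differed by 0.00 (95% interval -0.03 to 0.04, adjusted p = 0.921).

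Loxl2 (ENSMUSG00000034205, chr14:69609068-69695834, plus strand) encodes an enzyme of basement membrane collagen crosslinking. Levels were 112, 114 and 111 CPM with DMSO, 99.2, 94.3 and 100.3 CPM with rapamycin, 108, 109 and 107 CPM with Torin1 and 86.8, 88.1 and 87.4 CPM with RapaLink-1. No 2 groups overlapped, and the RapaLink-1 libraries were lowest. Loxl2 fell by 0.36 ± 0.03 on the log2 scale with RapaLink-1 (adjusted p = 2.36e-29) and by 0.19 ± 0.02 with rapamycin (adjusted p = 5.05e-12). The Torin1 value of -0.05 ± 0.02 (adjusted p = 0.0388) was lost without DMSO replicate 2 (-0.05, adjusted p = 0.122) or Torin1 replicate 3 (-0.06, adjusted p = 0.058) and in a fit of only these 2 groups (-0.05, adjusted p = 0.0511). With upper-quartile scaling it turned to 0.07 and was called higher (adjusted p = 0.00495). RapaLink-1 was lower than Torin1 (-0.30 ± 0.03, adjusted p = 3.93e-22).

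Loxl3 (ENSMUSG00000000693, chr6:83034173-83052562, plus strand) encodes a paralogue needed for palate and spine development. It was at 95.6, 89.1 and 90.6 CPM with DMSO, 94.2, 94.7 and 97.1 CPM with rapamycin, 87.5, 87.2 and 83.0 CPM with Torin1 and 70.0, 69.7 and 71.0 CPM with RapaLink-1. DMSO and rapamycin overlapped, and RapaLink-1 was below all other libraries. The value with rapamycin was 0.05 ± 0.03 (95% interval 0.00 to 0.11, adjusted p = 0.0644), and without DMSO replicate 1 it was 0.08 (adjusted p = 0.0103). It was also called higher with upper-quartile scaling (0.12, adjusted p = 4.51e-05), with a filter at 5 CPM (0.11, adjusted p = 9.03e-05) and in a fit of only the 2 groups (0.08, adjusted p = 0.00818). With RapaLink-1 Loxl3 fell by 0.39 ± 0.03 (adjusted p = 8.5e-29), and with Torin1 by 0.10 ± 0.03 (adjusted p = 0.000597), a value that became 0.03 with upper-quartile scaling. Htra2, a mitochondrial protease gene on the opposite strand, covers 11.6% of the exonic bases of Loxl3. Because the strand setting of the counting is not given in the sources used here, Loxl3 is uncertain; Htra2 itself stood at -0.14 ± 0.03, -0.05 ± 0.03 and -0.07 ± 0.03 with rapamycin, Torin1 and RapaLink-1.

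Loxl4 (ENSMUSG00000025185, chr19:42593982-42612813, minus strand) encodes a paralogue that shares scavenger receptor domains with Loxl2 and Loxl3. Its values were 64.9, 63.9 and 65.2 CPM with DMSO and 68.3, 64.3 and 67.8 CPM with rapamycin, 2 groups that overlapped. They were 53.2, 52.4 and 52.0 CPM with Torin1 and 84.7, 83.6 and 84.1 CPM with RapaLink-1, below and above all DMSO libraries. Loxl4 fell by 0.30 ± 0.03 with Torin1 (adjusted p = 2.14e-17) and rose by 0.38 ± 0.03 with RapaLink-1 (adjusted p = 8.34e-27). The difference between RapaLink-1 and Torin1, 0.68 ± 0.03 (adjusted p = 5.69e-50), was larger than that of any other member in any of the 6 comparisons save Lox and P4ha1 with Torin1 against DMSO. With rapamycin the value was 0.05 ± 0.03 (95% interval -0.01 to 0.11, adjusted p = 0.155), and without rapamycin replicate 2 it was 0.07 (adjusted p = 0.0479). It was also called higher with upper-quartile scaling (0.11, adjusted p = 0.000582), with the 5 CPM filter (0.11, adjusted p = 0.000772) and in a fit of only the 2 groups (0.07, adjusted p = 0.0311).

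Summed over the 5 genes, lysyl oxidase messages were at 545 ± 2.18 RPKM (SD, n = 3) with DMSO, 659 ± 1.13 with rapamycin, 778 ± 4.50 with Torin1 and 698 ± 1.09 with RapaLink-1. Lox made up 65.1% of this sum with DMSO, 66.2% with rapamycin, 77.2% with Torin1 and 74.5% with RapaLink-1. The share of Loxl1 was 24.6%, 25.5%, 16.3% and 18.2% in the same order. Shares do not depend on how the libraries were scaled. The ratio of Lox to Loxl1 in RPKM was 2.65 ± 0.07 with DMSO and 2.59 ± 0.08 with rapamycin, whose libraries overlapped, and 4.75 ± 0.10 with Torin1 and 4.10 ± 0.07 with RapaLink-1. The ratio of Loxl4 to Lox was 0.0432 ± 0.000796 with DMSO and 0.0208 ± 0.000292 with Torin1, a level 2.08 times lower, and was 0.0384 ± 0.000157 with RapaLink-1.

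**Figure D3:**
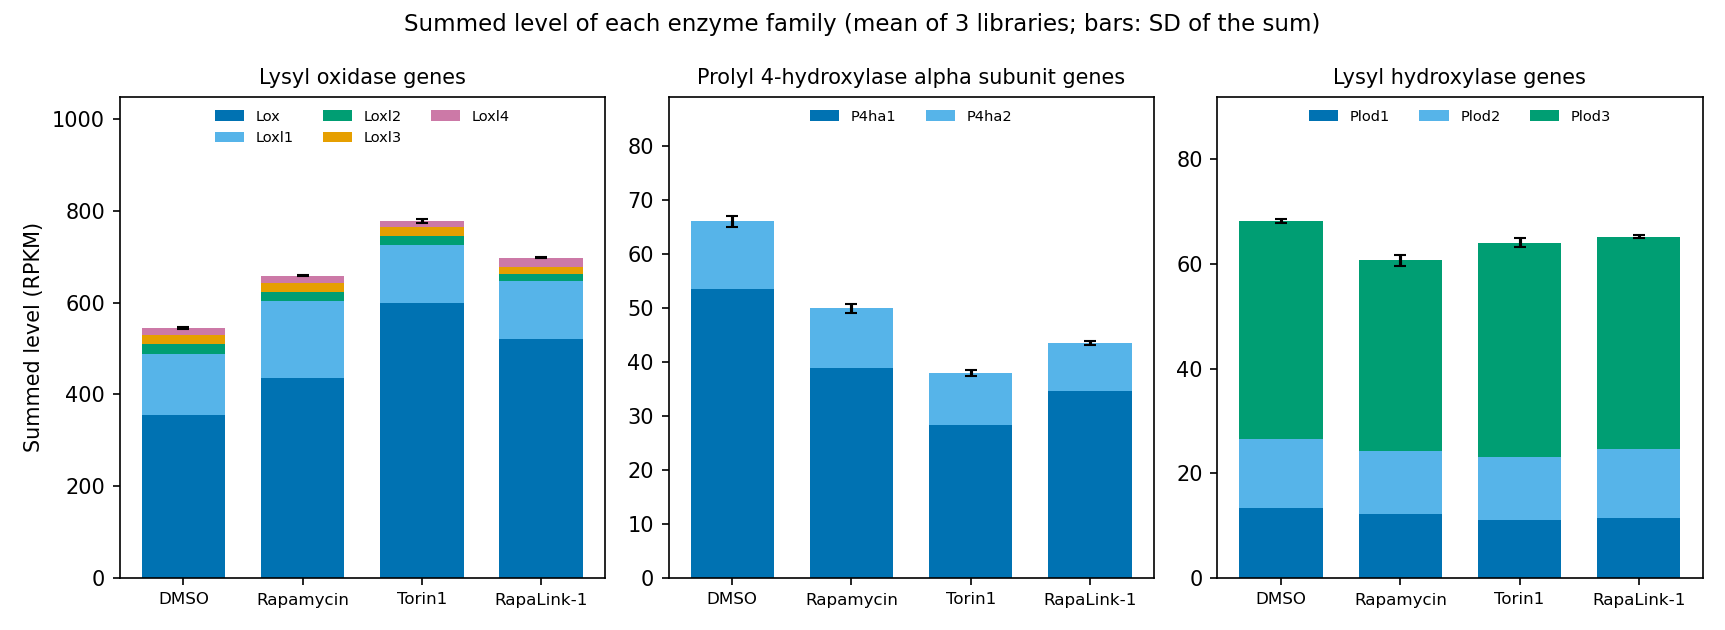
Summed level in RPKM (vertical axes, from 0, a scale for each family) of the 5 lysyl oxidase genes, of P4ha1 and P4ha2 (prolyl 4-hydroxylase alpha subunits, without P4ha3) and of the 3 lysyl hydroxylase genes by treatment; colours are the genes, each bar the mean of 3 libraries and the error bar the SD of the sum. The first family goes from 545 with DMSO to 778 with Torin1 and the second from 66.1 to 38.0, while the third lies between 60.7 and 68.1 in all groups.

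P4ha1 (ENSMUSG00000019916, chr10:59323296-59373304, plus strand) encodes the main catalytic alpha subunit of prolyl 4-hydroxylase, and P4ha2 (ENSMUSG00000018906, chr11:54100095-54131665, plus strand) its paralogue, prominent in cartilage. Both genes are known targets of hypoxia-inducible factors (HIF), so the 250 bases before their annotated starts are shown. The window of Plod3, which had the most matches, is printed beside them, though Plod3 is not among the HIF targets named below. The window of Plod1, which is named there, is not printed. RefSeq on GRCm38.p6 had such a window for 5 of the 10 members, the other 2 being Loxl4 and Plod1. Capitals mark ACGTG and GCGTG, the cores of the HIF binding site, on either strand. ACGTG is also part of the CACGTG E-box, but each ACGTG in the printed windows follows a T on its strand, so none is CACGTG.
P4ha1, chr10:59323046-59323295, plus strand: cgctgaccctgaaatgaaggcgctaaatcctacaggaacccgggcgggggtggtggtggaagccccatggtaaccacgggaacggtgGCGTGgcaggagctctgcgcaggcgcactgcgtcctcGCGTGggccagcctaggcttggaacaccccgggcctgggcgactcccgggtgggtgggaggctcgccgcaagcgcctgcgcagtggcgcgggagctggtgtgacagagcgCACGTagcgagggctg
P4ha2, chr11:54100674-54100923, plus strand: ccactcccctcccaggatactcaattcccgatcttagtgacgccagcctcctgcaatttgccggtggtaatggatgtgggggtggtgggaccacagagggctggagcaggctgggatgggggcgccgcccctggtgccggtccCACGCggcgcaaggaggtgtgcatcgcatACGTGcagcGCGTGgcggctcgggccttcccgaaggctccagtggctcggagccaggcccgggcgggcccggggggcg
Plod3, chr5:136986769-136987018, plus strand: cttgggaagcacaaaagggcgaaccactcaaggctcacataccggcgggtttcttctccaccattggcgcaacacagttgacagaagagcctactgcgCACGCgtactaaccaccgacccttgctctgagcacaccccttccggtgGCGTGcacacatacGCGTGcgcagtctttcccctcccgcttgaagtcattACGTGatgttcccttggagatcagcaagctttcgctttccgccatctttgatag

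P4ha1 and P4ha2 had 3 matches each, Plod3 had 4, and Loxl4 and Plod1 had 1 GCGTG each. In P4ha2 an ACGTG 78 to 74 bases before the start was followed by a GCGTG 69 to 65 bases before it. In P4ha1 the ACGTG match was on the opposite strand, 16 to 12 bases before the start. At least 1 match was in 38.6% of the 32851 mouse windows of this length in the table, ACGTG in 16.6% and GCGTG in 28.2%. The share of G and C in the member windows ran from 55.6% for Plod3 to 76.0% for Loxl4. The shares over all windows were not matched for it. The P4ha2 window lies inside the gene as the count tables draw it, since they start the gene at base 54100095. A match is a run of letters and does not show binding.

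The P4ha1 level was 220.3, 217 and 225 CPM with DMSO and 162, 159.7 and 157 CPM with rapamycin. It was 119, 116 and 116 CPM with Torin1 and 141, 143 and 143 CPM with RapaLink-1. No 2 groups overlapped. P4ha1 was 1.38-fold lower with rapamycin (log2 fold change -0.47 ± 0.02, adjusted p = 4.17e-51), 1.89-fold lower with Torin1 (-0.92 ± 0.02, adjusted p = 2.42e-89) and 1.55-fold lower with RapaLink-1 (-0.63 ± 0.02, adjusted p = 6.09e-68). The Torin1 fall was the largest change of any member against DMSO. RapaLink-1 left P4ha1 0.29 ± 0.02 above Torin1 (adjusted p = 1.56e-24) and below rapamycin (-0.17 ± 0.02, adjusted p = 4.37e-12).

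P4ha2 was at 75.5, 79.3 and 78.4 CPM with DMSO, 69.4, 70.7 and 67.8 CPM with rapamycin, 61.6, 58.5 and 58.8 CPM with Torin1 and 54.8, 55.1 and 57.1 CPM with RapaLink-1. Each group lay below the one before it, without overlap. It fell by 0.17 ± 0.03 with rapamycin (adjusted p = 1.66e-07), by 0.38 ± 0.03 with Torin1 (adjusted p = 7.3e-26) and by 0.48 ± 0.03 with RapaLink-1 (adjusted p = 3.39e-34). The order of Torin1 and RapaLink-1 was thus the reverse of that for P4ha1, but the difference of -0.10 ± 0.03 (adjusted p = 0.0101) was lost with DESeq2 (-0.09, adjusted p = 0.0569). It was also lost without Torin1 replicate 1 (-0.07, adjusted p = 0.137), RapaLink-1 replicate 1 (-0.08, adjusted p = 0.0744) or RapaLink-1 replicate 2 (-0.08, adjusted p = 0.0754).

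Together the P4ha1 and P4ha2 messages were at 66.1 ± 0.983 RPKM with DMSO, 49.9 ± 0.783 with rapamycin, 38.0 ± 0.627 with Torin1 and 43.5 ± 0.431 with RapaLink-1. The ratio of P4ha1 to P4ha2 was 4.30 ± 0.15 with DMSO, 3.50 ± 0.06 with rapamycin, 2.97 ± 0.05 with Torin1 and 3.88 ± 0.07 with RapaLink-1, with no overlap between groups. P4ha3, the alpha subunit gene left out of this sum and named after its values were seen, stood at 24.3 ± 1.11 CPM with DMSO, 30.1 ± 0.363 with rapamycin, 23.8 ± 1.08 with Torin1 and 25.3 ± 0.693 with RapaLink-1. It rose by 0.31 ± 0.04 with rapamycin (adjusted p = 3.78e-10), where P4ha1 and P4ha2 fell, and was not called with Torin1 (-0.03 ± 0.05, adjusted p = 0.507) or RapaLink-1 (0.06 ± 0.05, adjusted p = 0.229). P4hb, protein disulfide isomerase and the beta subunit of the enzyme, also fell, by 0.21 ± 0.01, 0.58 ± 0.01 and 0.56 ± 0.01 with rapamycin, Torin1 and RapaLink-1 (adjusted p = 1.03e-29, 6.61e-83 and 3.24e-81). The ratio of P4ha1 to P4hb was 0.147 ± 0.00260 with DMSO, 0.123 ± 0.00168 with rapamycin, 0.116 ± 0.00117 with Torin1 and 0.140 ± 0.00181 with RapaLink-1.

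Plod1 (ENSMUSG00000019055, chr4:147909753-147936767, minus strand) encodes the lysyl hydroxylase of helical lysines. Its level was 90.4, 89.8 and 92.2 CPM with DMSO, 85.7, 83.7 and 80.1 CPM with rapamycin, 73.5, 75.9 and 74.5 CPM with Torin1 and 75.5, 77.7 and 77.9 CPM with RapaLink-1. DMSO was highest and rapamycin came next, while the kinase inhibitors overlapped. Plod1 fell by 0.13 ± 0.03, 0.28 ± 0.03 and 0.24 ± 0.03 with rapamycin, Torin1 and RapaLink-1 (adjusted p = 1.34e-05, 6.5e-19 and 1.33e-14). RapaLink-1 and Torin1 differed by 0.05 ± 0.03 (95% interval -0.01 to 0.10, adjusted p = 0.222). The difference between RapaLink-1 and rapamycin, -0.11 ± 0.03 (adjusted p = 0.00027), was lost with upper-quartile scaling (-0.03, adjusted p = 0.278).

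Plod2 (ENSMUSG00000032374, chr9:92542223-92608428, plus strand) encodes the hydroxylase of telopeptide lysines, whose product gives the crosslinks found in fibrotic tissue. It was at 70.1, 71.2 and 70.9 CPM with DMSO, 65.4, 65.3 and 62.0 CPM with rapamycin, 65.3, 66.5 and 64.7 CPM with Torin1 and 72.6, 69.8 and 71.3 CPM with RapaLink-1. RapaLink-1 overlapped DMSO, and rapamycin overlapped Torin1 at a lower level. Plod2 fell by 0.14 ± 0.03 with rapamycin (adjusted p = 1.15e-05) and by 0.11 ± 0.03 with Torin1 (adjusted p = 0.000368), the latter turning to 0.02 with upper-quartile scaling. With RapaLink-1 it stood at 0.01 ± 0.03 (95% interval -0.05 to 0.07, adjusted p = 0.79), and was called higher with upper-quartile scaling (0.15, adjusted p = 2.43e-06) and with the 5 CPM filter (0.09, adjusted p = 0.00182). RapaLink-1 exceeded Torin1 by 0.12 ± 0.03 (adjusted p = 0.000466). Gm38391 on the opposite strand, at 1.89 CPM on average, overlaps 6.4% of the Plod2 exons.

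Plod3 (ENSMUSG00000004846, chr5:136987019-136996648, plus strand) encodes an enzyme that also adds galactose and glucose to hydroxylysine. Values were 187, 189 and 188 CPM with DMSO, 167, 164 and 164 CPM with rapamycin, 185, 187 and 182 CPM with Torin1 and 183, 186 and 182 CPM with RapaLink-1. The rapamycin libraries lay below all others, and Torin1 overlapped both DMSO and RapaLink-1. With rapamycin Plod3 fell by 0.19 ± 0.02 (adjusted p = 3.84e-16). With Torin1 it stood at -0.02 ± 0.02 (95% interval -0.06 to 0.02, adjusted p = 0.263) and with RapaLink-1 at -0.04 ± 0.02 (95% interval -0.08 to 0.00, adjusted p = 0.0993), and neither was called. With upper-quartile scaling both became 0.10 and were called higher (adjusted p = 2.09e-06 and 2.33e-06), as they were with the 5 CPM filter (0.07 and 0.05, adjusted p = 0.00121 and 0.0151). With no filter the RapaLink-1 value was called lower (-0.05, adjusted p = 0.0376), so this call went either way. Znhit1, a chromatin remodelling subunit gene on the opposite strand, covers 11.7% of the exonic bases of Plod3, so Plod3 is uncertain too; Znhit1 stood at -0.15 ± 0.04, -0.46 ± 0.04 and -0.50 ± 0.04 with the 3 compounds.

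Summed lysyl hydroxylase messages stood at 68.1 ± 0.385 RPKM with DMSO, 60.7 ± 1.11 with rapamycin, 64.1 ± 0.867 with Torin1 and 65.2 ± 0.265 with RapaLink-1. The differences of Torin1 and RapaLink-1 from DMSO are smaller than the shift between scalings given above. Plod3 made up 61.1%, 60.1%, 63.8% and 62.3% of the sum with DMSO, rapamycin, Torin1 and RapaLink-1, and Plod1 19.7%, 20.3%, 17.2% and 17.5%.

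Between compounds, Torin1 against rapamycin had 3 members higher and 6 lower, beside 34.2% and 33.2% of all genes. RapaLink-1 against rapamycin had 4 higher and 6 lower, beside 32% and 33%. RapaLink-1 against Torin1 had 3 higher and 4 lower, beside 16.7% and 16.4%. In that last comparison Loxl4, P4ha1 and Plod2 were higher with RapaLink-1, and Lox, Loxl2, Loxl3 and P4ha2 were lower. Doses were 10 nM for RapaLink-1 and 250 nM for Torin1, and each group had 1 dose, so these are differences between these treatments and not between the molecules at matched doses.

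The chains of type I and type III collagen fell where Lox rose, and the type V chains went in different directions. Col1a1, a chain of type I collagen, fell by 0.32 ± 0.01, 0.65 ± 0.01 and 0.71 ± 0.01 on the log2 scale with rapamycin, Torin1 and RapaLink-1. Col1a2, the other type I chain, stood at -0.14 ± 0.01, -0.83 ± 0.01 and -0.80 ± 0.01, and Col3a1, of type III collagen, at -0.31 ± 0.02, -1.28 ± 0.02 and -1.28 ± 0.02, all called. Col5a2, of type V collagen, rose by 0.27 ± 0.01 with rapamycin (adjusted p = 5.82e-43) and by 0.25 ± 0.01 with RapaLink-1 (adjusted p = 1.83e-39), and stood at -0.06 ± 0.01 with Torin1 (adjusted p = 1.94e-05), less than the shift between scalings. The type V chains Col5a1 and Col5a3 were named after their values were seen. Col5a1 fell by 0.12 ± 0.02, 0.25 ± 0.02 and 0.20 ± 0.02, and Col5a3, at 6.98 CPM with DMSO, rose by 0.51 ± 0.08, 0.80 ± 0.07 and 1.20 ± 0.07. Of 9 fibrillar collagen chains tested, 3 rose and 5 fell with rapamycin, and 3 rose and 6 fell with either Torin1 or RapaLink-1, with medians of -0.14, -0.25 and -0.30. The ratio of Lox to Col1a1 in RPKM, which does not depend on library scaling, was 0.424, 0.425 and 0.410 with DMSO and 0.633, 0.663 and 0.630 with rapamycin. It was 1.13, 1.11 and 1.09 with Torin1 and 1.00, 0.987 and 1.02 with RapaLink-1. The means were 1.53, 2.65 and 2.39 times that of DMSO. The ratio of P4ha1 to Col1a1 changed less and was 0.0634 ± 0.000522 with DMSO, 0.0572 ± 0.00153 with rapamycin, 0.0527 ± 0.00149 with Torin1 and 0.0669 ± 0.00121 with RapaLink-1. The ratios of P4ha2 and the lysyl hydroxylases to Col1a1 rose with every compound. With rapamycin, Torin1 and RapaLink-1 the mean for P4ha2 was 1.11, 1.20 and 1.17 times that of DMSO. For Plod1 it was 1.14, 1.29 and 1.39 times, for Plod2 1.13, 1.45 and 1.65 times, and for Plod3 1.09, 1.54 and 1.59 times.

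**Figure D4:**
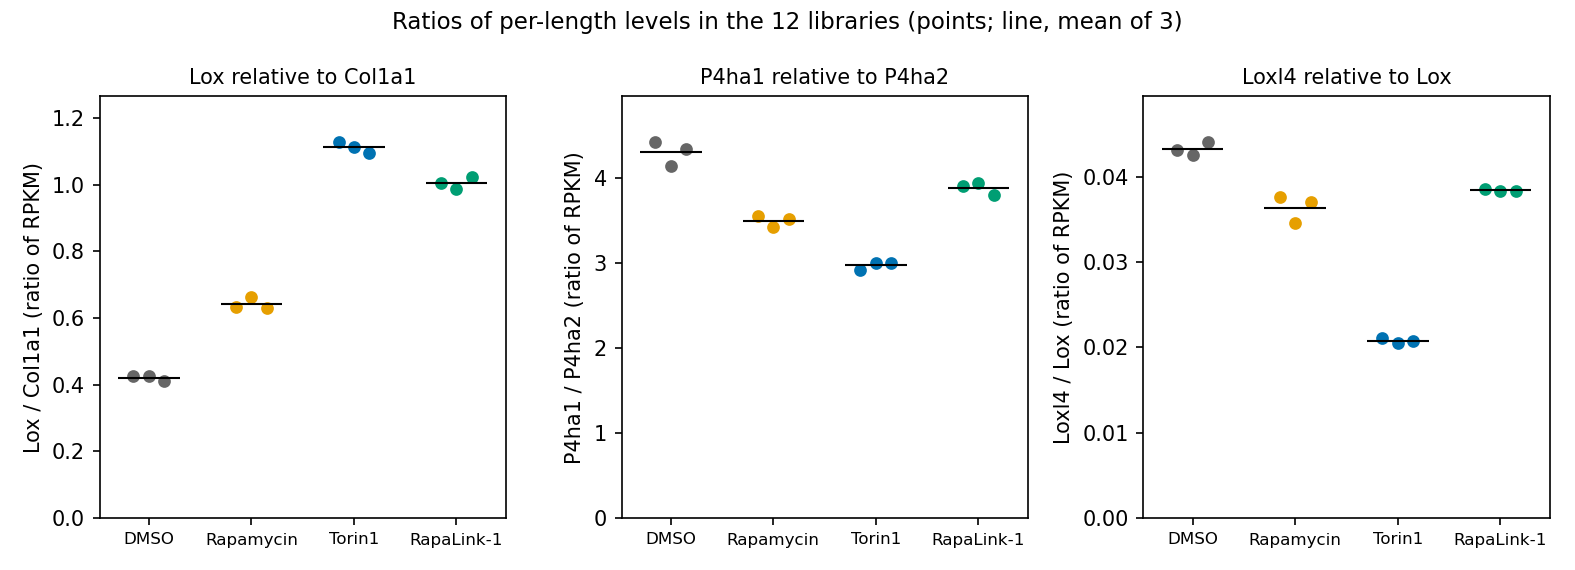
Ratio of RPKM values (vertical axes, from 0) for Lox to Col1a1, P4ha1 to P4ha2 and Loxl4 to Lox in the 12 libraries by treatment; points are libraries and lines the mean of 3. Lox to Col1a1 goes from 0.420 with DMSO to 1.11 with Torin1, P4ha1 to P4ha2 from 4.30 to 2.97, and Loxl4 to Lox from 0.0432 to 0.0208.

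Genes that work beside the hydroxylases were read from lists of known members. Counts in these and the other lists stand beside the shares over all genes tested. Those were 27.5% higher and 32.2% lower with rapamycin, 39.8% and 38.3% with Torin1, and 38.7% and 37.9% with RapaLink-1. Of 9 prolyl hydroxylase partners, 6 rose and 3 fell with rapamycin, while 2 rose and 6 fell with Torin1 and with RapaLink-1. Upper-quartile scaling gave 3 falls with Torin1 and 4 with RapaLink-1. P3h3, a prolyl 3-hydroxylase of the lysyl hydroxylation complex, rose by 0.58 ± 0.04, 0.55 ± 0.04 and 0.47 ± 0.04 with rapamycin, Torin1 and RapaLink-1. Ppib, the cyclophilin B of the 3-hydroxylation complex, stood at 0.07 ± 0.02, -0.18 ± 0.02 and -0.36 ± 0.02, all called, though Snx22 on the opposite strand overlaps 25.0% of its exons. Of 9 genes of collagen folding and glycosylation, 1 rose and 7 fell with rapamycin, 8 fell with Torin1 and 7 with RapaLink-1, with medians of -0.41, -0.96 and -0.88. Colgalt1, the glycosylation gene among them, was named after its values were seen. It stood at -0.01 ± 0.02, 0.02 ± 0.02 and -0.03 ± 0.02 and was not called with any compound. Unc13a on the opposite strand overlaps 11.4% of its exons. Serpinh1, the collagen chaperone HSP47, fell by 0.54 ± 0.01, 1.17 ± 0.02 and 1.01 ± 0.02, and Fkbp10, a chaperone that works with Plod2, by 0.11 ± 0.02, 0.35 ± 0.02 and 0.41 ± 0.02. Calr, the general chaperone calreticulin, fell by 0.42 ± 0.01, 1.64 ± 0.01 and 1.63 ± 0.01. Hspa5, Hsp90b1, Pdia3 and Canx of this list are general chaperones too, so its medians are not particular to collagen folding. With Torin1 they stood at -1.62, -1.30, -0.96 and -0.47. Fkbp14, a relative of Fkbp10, stood at 0.12 ± 0.04, -0.21 ± 0.04 and -0.07 ± 0.04 (not called) with rapamycin, Torin1 and RapaLink-1. Pdia3, Canx and Fkbp14 were named after their values were seen.

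Of 11 genes of procollagen export, 2 rose and 7 fell with rapamycin, and 1 rose and 8 fell with Torin1 and with RapaLink-1. Upper-quartile scaling gave 3 falls with rapamycin. Sec13, of the outer COPII coat, fell by 0.29 ± 0.02, 1.00 ± 0.03 and 0.92 ± 0.03 with rapamycin, Torin1 and RapaLink-1, and Sec24d, of the inner coat, by 0.46 ± 0.02, 0.67 ± 0.02 and 0.62 ± 0.02. Of 7 genes of propeptide cleavage, 4 rose and 2 fell with rapamycin, 3 rose and 3 fell with Torin1, and 4 rose and 3 fell with RapaLink-1. Bmp1, the protease that also activates the Lox proenzyme, rose by 0.48 ± 0.02, 0.56 ± 0.02 and 0.70 ± 0.02, and its relative Tll1 rose by 0.93 ± 0.04, 1.58 ± 0.04 and 1.42 ± 0.04. Pcolce, which enhances Bmp1 activity on procollagen, fell by 0.12 ± 0.02, 0.64 ± 0.02 and 0.47 ± 0.02.

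**Figure D5:**
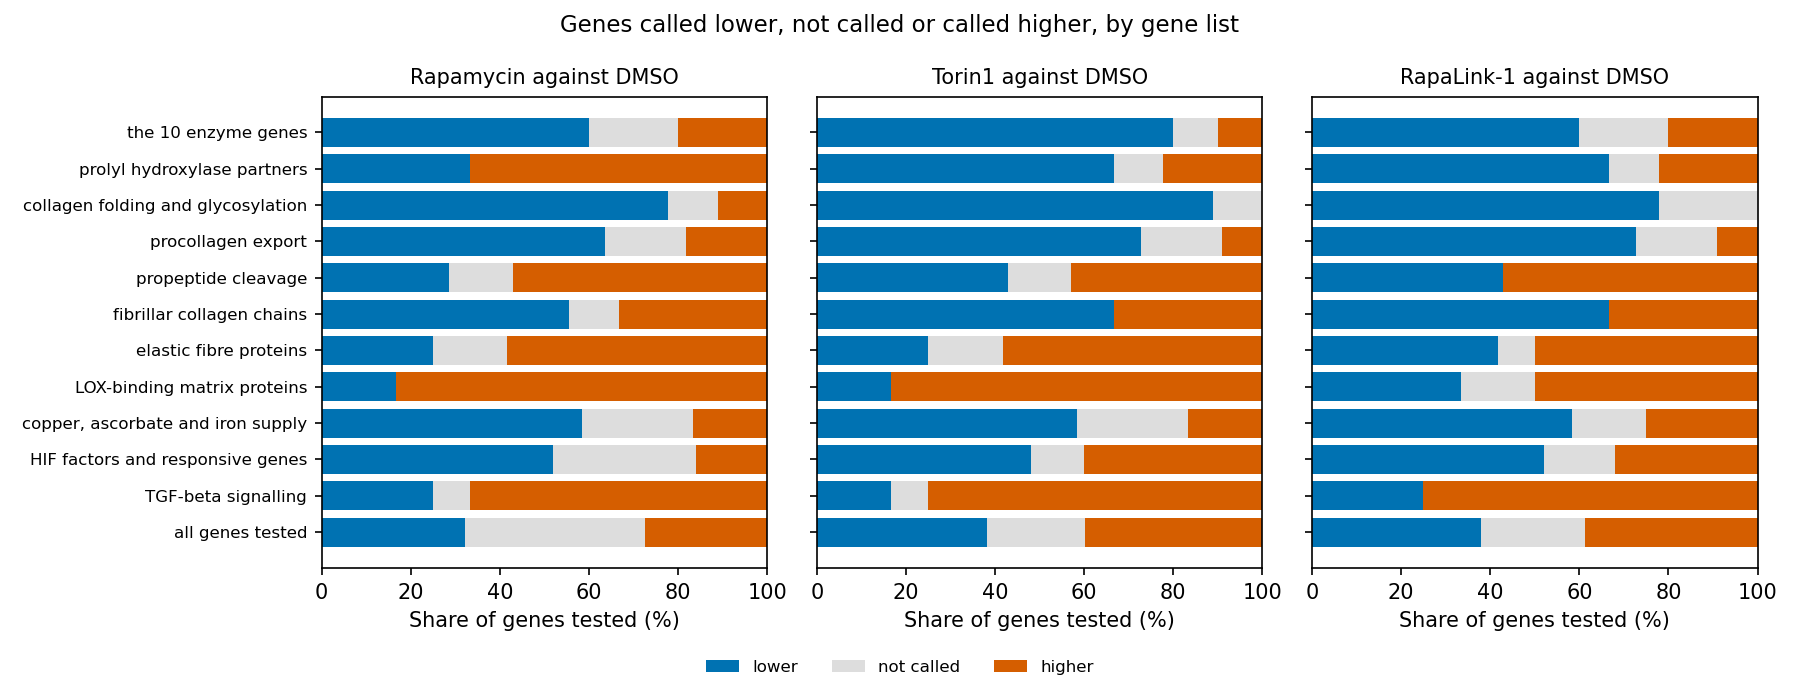
Share of the tested genes of each list (horizontal axes, percent) that were called lower, not called or called higher against DMSO with each compound, with the 10 enzyme genes on top and all 15917 genes at the bottom. The folding and glycosylation list has 8 of 9 genes lower with Torin1, and the LOX-binding list 5 of 6 higher.

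Among 12 elastic fibre proteins tested, other partners and substrates of the lysyl oxidases, 7 rose and 3 fell with rapamycin and with Torin1. With RapaLink-1, 6 rose and 5 fell, and the medians were 0.27, 0.11 and -0.03 with rapamycin, Torin1 and RapaLink-1. Eln, the gene of elastin itself, was also listed but did not pass the filter on low counts, so it was not tested. Ltbp2, which binds Fbln5 on elastic fibres, rose by 1.03 ± 0.02, 2.14 ± 0.02 and 1.85 ± 0.02, and Fbln2, a fibulin, by 0.65 ± 0.01, 1.38 ± 0.01 and 1.20 ± 0.01. Fbln5, which tethers Loxl1 to elastin, stood at 0.01 ± 0.02 (not called), 0.08 ± 0.02 and -0.51 ± 0.02, and was lower with RapaLink-1 than with Torin1 (-0.58 ± 0.02, adjusted p = 1.95e-60). Of 6 matrix proteins that bind Lox, 5 rose and 1 fell with rapamycin and with Torin1, and 3 rose and 2 fell with RapaLink-1. Thbs1, thrombospondin, rose by 0.75 ± 0.01, 1.60 ± 0.01 and 1.17 ± 0.01. Postn, the periostin that brings Bmp1 to Lox, stood at -0.22 ± 0.02 with rapamycin, 1.06 ± 0.02 with Torin1 and -0.28 ± 0.02 with RapaLink-1, and at -1.34 ± 0.02 for RapaLink-1 against Torin1, all called.

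Transport of cofactors was read from the messages of 12 genes for copper, ascorbate and iron, and levels of the cofactors were not measured. Of the 12 genes, 2 rose and 7 fell with rapamycin and with Torin1, and 3 rose and 7 fell with RapaLink-1. Their medians were -0.20, -0.43 and -0.55. Tfrc, the transferrin receptor that imports iron, fell by 0.91 ± 0.02, 1.87 ± 0.02 and 2.16 ± 0.02, and Slc31a1, the copper importer, by 0.31 ± 0.03, 0.83 ± 0.03 and 0.84 ± 0.03. The other copper genes of the list, named after their values were seen, went both ways. Atp7a stood at 0.03 ± 0.04 (not called), 0.33 ± 0.04 and 0.49 ± 0.04, and Slc31a2 at 0.31 ± 0.08, 0.63 ± 0.07 and 0.63 ± 0.07. Atox1, a copper chaperone, fell by 0.15 ± 0.04, 0.54 ± 0.04 and 0.62 ± 0.04. Atp7b, at only 0.447 CPM with DMSO, stood at -0.71 ± 0.38 (not called), -1.20 ± 0.42 and -1.70 ± 0.45. Upper-quartile scaling gave 5 rises in this list with Torin1.

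Lox, Loxl2, P4ha1, P4ha2, Plod1 and Plod2 are known HIF targets, and 25 tested HIF factors and responsive genes are given beside them. With rapamycin 4 rose and 13 fell, with Torin1 10 rose and 12 fell, and with RapaLink-1 8 rose and 13 fell, with medians of -0.11, -0.07 and -0.09. Ldha, lactate dehydrogenase A, fell by 0.77 ± 0.02, 1.36 ± 0.02 and 1.29 ± 0.02, and the glycolytic gene Pgk1 by 0.51 ± 0.02, 0.78 ± 0.02 and 0.72 ± 0.02. Hif1a, the oxygen-regulated subunit itself, stood at -0.12 ± 0.02, 0.51 ± 0.02 and 0.28 ± 0.02, all called. The list had no common direction. Kdm3a, a histone demethylase, rose by 0.16 ± 0.03, 0.59 ± 0.03 and 0.58 ± 0.03, and Vegfa, the angiogenic growth factor, by 0.25 ± 0.03, 0.51 ± 0.03 and 0.24 ± 0.03. Bhlhe40, a transcriptional repressor, stood at -0.06 ± 0.03 (not called), 0.68 ± 0.03 and 0.69 ± 0.03. These 3 were named after their values were seen. Lox thus rose where Kdm3a and Vegfa rose and Ldha and Pgk1 fell, and P4ha1 and P4ha2 fell there. A part of HIF in these changes was not tested.

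Transforming growth factor beta raises Lox in many fibroblasts, and its part in the values of Lox here was not tested. Of 12 genes of that pathway, 8 rose and 3 fell with rapamycin, beside 27.5% and 32.2% of all genes tested. With Torin1 9 rose and 2 fell, beside 39.8% and 38.3%. With RapaLink-1 9 rose and 3 fell, beside 38.7% and 37.9%. The medians of the 12 were 0.30, 0.53 and 0.49. Those that fell were Smad2 and Smad4 with each compound, Tgfb2 with rapamycin and Tgfbr2 with RapaLink-1, all named after their values were seen. Smad2 fell by 0.32 ± 0.03, 0.51 ± 0.03 and 0.47 ± 0.03. Ccn2, a matricellular target, rose by 1.36 ± 0.02, 2.04 ± 0.02 and 1.78 ± 0.02, though Gm15270 on the opposite strand overlaps 23.2% of its exons. The feedback inhibitors Skil and Smad7 rose as well, Skil by 0.38 ± 0.03, 0.97 ± 0.03 and 1.11 ± 0.03 and Smad7 by 0.56 ± 0.03, 0.98 ± 0.03 and 1.06 ± 0.03. Like Lox, Ccn2 was highest with Torin1, whereas Skil and Smad7 were highest with RapaLink-1 (0.14 ± 0.02 and 0.08 ± 0.03 above Torin1, adjusted p = 1.68e-07 and 0.0294).

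Patterns over the 12 libraries were compared with those of 9397 other genes averaging 10 CPM or more, by the root mean square distance of log2 CPM values centred on the DMSO mean. All genes share the libraries and their scaling, so the distances are descriptions. Lox was nearest to Tgfbr3 (0.0333) and Snx18 (0.0407), with 138 genes within 0.1. Loxl1 was nearest to Spg7 (0.0324) and Cyb5r3 (0.0441), with 59 within 0.1, and P4ha1 to Mast2 (0.0506) and Sept9 (0.0542), with 51. Loxl4 had the least shared pattern of the members, with Csrnp1 (0.0930) as the only gene within 0.1. By contrast 956 genes lay that close to Plod1, 746 to Plod2, 713 to Plod3 and 626 to P4ha2. Loxl2 had 111 and Loxl3 had 51.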

How the data were processed

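RNA sequencing tables of 12 libraries were used, 1 per library. Per the file headers, the authors made whole-number read counts per gene with featureCounts, and these deposited counts were used unchanged. Per the submitters' processing notes, the build was GRCm38 and the tools included DESeq2, Subread 1.5.2, STAR 2.5.2b and Trimmomatic 0.36. The annotation release is not given in the sources used here, and neither are the strand setting and the handling of reads with several matches. Overlapping genes and close paralogues may therefore share reads. Gene symbols came from GENCODE M21, and positions from the count tables.

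Genes were filtered with filterByExpr by group, which left 15917, and scaled with TMM factors. All 12 libraries entered 1 robust quasi-likelihood fit in edgeR 4.0.16 (R 4.3.3, limma 3.58.1) with the group as its term and 8 residual degrees of freedom. The test also draws on the spread of all genes between libraries, which adds to these degrees of freedom. A p-value therefore does not rest on the libraries of 1 gene alone. The 6 pairs of groups were tested on both sides with Benjamini-Hochberg adjustment over all genes tested. The test was checked on simulated counts. Over the 6 comparisons it recovered 32 to 42 of 50 genes changed 1.25-fold and 34 to 44 of 50 changed 1.5-fold. It also called 5 to 10 unchanged genes. Changes of this size can therefore be missed. CPM and RPKM used the TMM-scaled totals and the exonic length in the tables. Alternatives were DESeq2 1.42.0, its size factors in edgeR, limma-voom, upper-quartile scaling, no filter, a filter at a mean of 5 CPM, a fit of only the groups compared, a replicate block and leaving out each library. With 3 libraries a group and a common biological variation of 1.48%, small differences pass the test.

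The enzyme genes and the partner lists were chosen with earlier results of these data known. All members were named, and from each list up to 4 genes with the smallest p among the groups, or direct partners of a member. Some further genes were named after their values were seen, as said where they appear. Pairs of libraries of a group differed by more than sampling noise (chi-square over its degrees of freedom 1.34 to 2.06), so none was counted as a repeat.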

Additional observations from a re-analysis of the deposited data

How the results depend on the processing

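Of 140 member values per comparison under the alternatives, 132, 127 and 131 kept direction and call for rapamycin, Torin1 and RapaLink-1 against DMSO, as did 137 for Torin1 against rapamycin, 139 for RapaLink-1 against rapamycin and 132 for RapaLink-1 against Torin1. Lox and P4ha1 kept both under every alternative in all 6 comparisons. The number of members higher with rapamycin was 4 in place of 2 with upper-quartile scaling, with a filter at 5 CPM and with only the groups compared, the added genes being Loxl3 and Loxl4, and 2 to 3 when 1 library was left out. With Torin1 it was 4 higher and 4 lower with upper-quartile scaling and 2 higher and 4 lower with the 5 CPM filter, in place of 1 and 8, and 7 to 8 lower when 1 library was left out. With RapaLink-1, 5 were higher with upper-quartile scaling and 4 with the 5 CPM filter, in place of 2. The filter changes the genes from which the scaling is computed.

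With Torin1 against DMSO, upper-quartile scaling turned Loxl1 to 0.042, Loxl2 to 0.073, Loxl3 to 0.029, Plod2 to 0.015 and Plod3 to 0.102, and the 5 CPM filter turned Loxl1 to 0.00733, Loxl2 to 0.038 and Plod3 to 0.067. With RapaLink-1 against DMSO, upper-quartile scaling turned Loxl1 to 0.056 and Plod3 to 0.102, and the 5 CPM filter to 0.00435 and 0.050. Plod2 there was -0.00655 with no filter and -0.00498 to 0.0209 with 1 library left out, lowest without RapaLink-1 replicate 1. Plod2 for Torin1 against rapamycin ranged from -0.00230 (without Torin1 replicate 2) to 0.0433 with 1 library left out, and was called higher with upper-quartile scaling (0.0935, adjusted p = 0.00372) and with the 5 CPM filter (0.0631, adjusted p = 0.0448). Plod3 for RapaLink-1 against DMSO was -0.0509 with no filter and then called lower (adjusted p = 0.0376). For RapaLink-1 against Torin1, Loxl1 was -0.00297 with the 5 CPM filter and -0.000333 (without RapaLink-1 replicate 2) to 0.0197 with 1 library left out, and Plod3 was -0.0173 to 0.00467, turning without Torin1 replicate 2 and without RapaLink-1 replicate 3 (0.00242). Beyond the scaling itself, the cause was not tested.

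Deviations of same-numbered libraries correlated between -0.039 and 0.059, so the numbers were not taken as pairs. A replicate block gave 2 higher and 6 lower with rapamycin, 1 and 8 with Torin1 and 2 and 6 with RapaLink-1 against DMSO, and 3 and 6, 4 and 6, and 3 and 4 between compounds, and changed no member's call. In CPM, with no division by length, Loxl4, P4ha2 and Plod1 ranked 10, 8 and 7 in DMSO.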
